A study of Saccharomyces cerevisiae with 14 samples.

Results

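The mRNAs of the Rho1 GTPase and of the proteins that switch it on and off were followed in RNA immunoprecipitations of 3 mRNA decay factors of *Saccharomyces cerevisiae*. The genes were taken by their identifiers: *RHO1* (YPR165W), the exchange factors *ROM1* (YGR070W), *ROM2* (YLR371W) and *TUS1* (YLR425W), and the GTPase activators *LRG1* (YDL240W), *BEM2* (YER155C), *SAC7* (YDR389W) and *BAG7* (YOR134W). Of these 8 genes, 6 had a row in the count tables, among 5945 RNAs of which 4792 were mRNAs, and all 6 passed the filter on low counts. *SAC7* and *BAG7* were not analysed here. In the Puf5 IP the *LRG1* mRNA stood 21.8-fold above the mock IP, with 1 mRNA higher among 4642, while *ROM1* was raised most in the Ccr4 IP and *RHO1* itself differed by less than 2-fold in every IP.

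Rho1 is the essential GTPase that links the yeast plasma membrane to growth of the cell wall and to the actin cytoskeleton. Exchange factors load it with GTP, which lets it engage Pkc1, the glucan synthase and the formin Bni1, and GTPase activators return it to the inactive form bound to GDP. Sensors of the cell surface act through the exchange factors, and the kinases from Pkc1 to Slt2 form the cell wall integrity pathway. Of the factors that were tagged, Ccr4 is the main cytoplasmic deadenylase, Dhh1 is a helicase that promotes decapping and represses translation, and Puf5 (also called Mpt5) binds sequence elements in the 3′ ends of mRNAs.

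All strains were BY4741 (described by the submitters as wild-type cells), grown in rich YPAD medium at 30° without stress and crosslinked with 1% formaldehyde. Extracts of cells with a myc tag on Ccr4, Dhh1 or Puf5 were immunoprecipitated with an anti-myc antibody (Ccr4 IP, Dhh1 IP, Puf5 IP), and so were extracts of cells without a tag (UT IP), with 3 libraries each. RNA of untagged cells that was not immunoprecipitated gave 2 libraries (UT input). Formaldehyde joins proteins to each other as well as to RNA, so an enriched RNA need not touch the tagged protein, and because the input came from untagged cells, more of an mRNA on a factor cannot be told apart from more of that mRNA in the tagged strain.

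Library totals lay between 20376517 and 23943342, with 95.1% to 97.4% of the counts on rRNA. Of all counts, mRNAs made up 2.17% to 2.18% in the UT IP, 3.43% to 4.07% with tagged Ccr4, 3.15% to 3.83% with Dhh1, 2.73% to 3.32% with Puf5 and 2.51% to 2.81% in the input. The median mRNA stood above the UT IP by a log2 of 1.24, 0.94 and 0.61 in the Ccr4, Dhh1 and Puf5 IPs, and by 0.50, 0.30 and 0.13 when libraries were scaled to their mRNA totals. Of the genes that BY4741 lacks, *LEU2* had 0 to 2 counts, *MET17* (*MET15*) 0 to 3 and *URA3* 0 to 18, with 5 to 18 for *URA3* in the UT IP, while *STE2*, expressed in cells of mating type a, had 259 to 679. The mRNAs of the tagged proteins had 90 to 455 counts (*CCR4*), 210 to 980 (*DHH1*) and 6 to 36 (*PUF5*).

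Enrichment was tested with edgeR's quasi-likelihood F test, with Benjamini-Hochberg adjustment over the 4921 RNAs tested, and an mRNA was called with an adjusted p under 1% (FDR) and a log2 over 1, a 2-fold difference. In the Ccr4 IP, 4 of the 6 mRNAs were called higher than the UT IP, against 57.8% of all RNAs tested. In the Dhh1 IP 3 of 6 were called, against 37.4%, and in the Puf5 IP 2 of 6, against 17.6%. With the FDR alone and no cutoff on the log2, 5, 6 and 5 members passed in the Ccr4, Dhh1 and Puf5 IPs, against 68.5%, 53.4% and 23.6% of RNAs. The median log2 of the 6 mRNAs was 1.82, 0.99 and 0.78, against 1.24, 0.94 and 0.61 for all mRNAs, and all their values were above 0 on these library sizes.

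**Figure D1:**
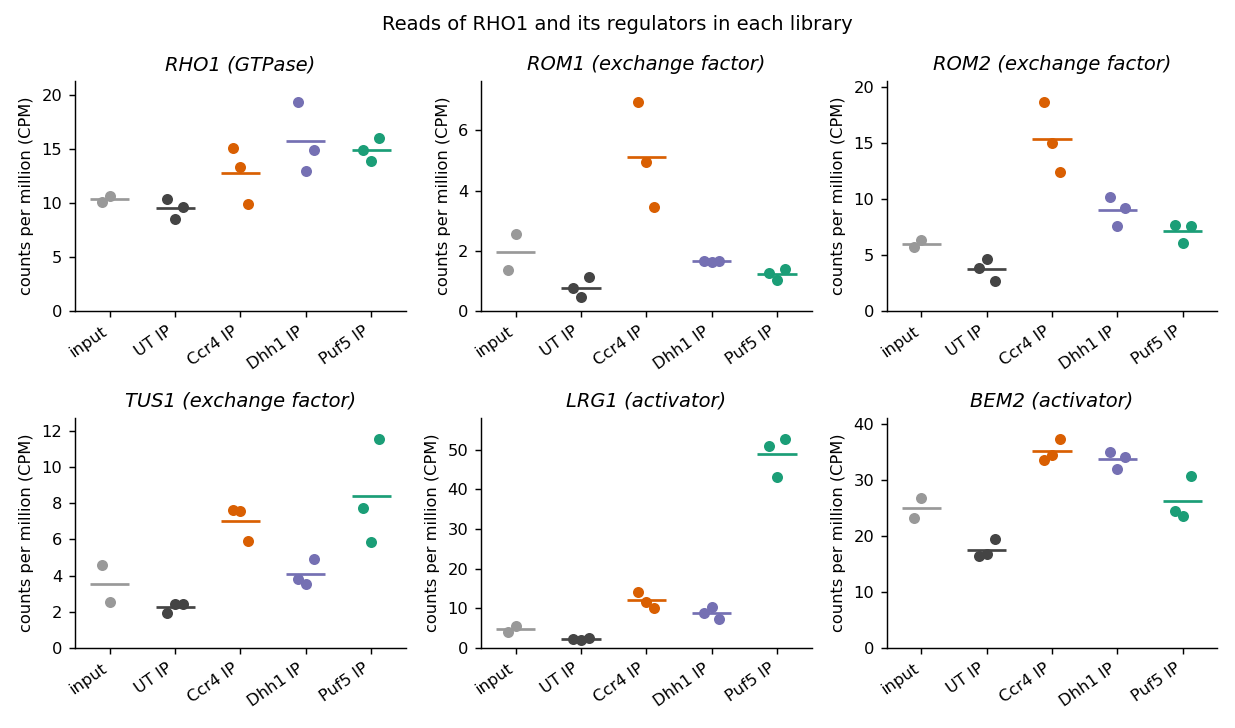
Reads of each mRNA per 1000000 counts of its library (CPM, vertical axis from 0) in the UT input, the UT IP and the Ccr4, Dhh1 and Puf5 IPs; each point is 1 library and each line is the mean of a group. *LRG1* sits between 43.1 and 52.8 CPM in the Puf5 IP and between 2.05 and 2.42 in the UT IP, and *ROM1* is highest in the Ccr4 IP.

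*RHO1*, which encodes the GTPase itself, stayed under 2-fold in every IP. It had 249, 187 and 219 counts in the UT IP, 346, 288 and 221 with tagged Ccr4, 441, 286 and 307 with tagged Dhh1, 339, 305 and 376 with tagged Puf5 and 205 and 228 in the input. The Ccr4 libraries overlapped those of the UT IP per 1000000 counts (9.94 to 15.1 against 8.51 to 10.4 CPM), whereas the Dhh1 (13.0 to 19.4 CPM) and Puf5 (13.9 to 16.0 CPM) libraries did not. Per 1000000 mRNA counts the Dhh1 (413 to 505) and Puf5 (447 to 509) libraries did overlap the UT IP (392 to 477). On that scale the Ccr4 libraries (290 to 371) were all below the UT IP. The log2 enrichment was 0.42 (SE 0.19, adjusted p = 0.041) in the Ccr4 IP, where only 12.3% of mRNAs had a lower value. For Dhh1 it was 0.73 (SE 0.19, adjusted p = 0.0017) and for Puf5 0.65 (SE 0.19, adjusted p = 0.0079), with 32.3% and 52.5% of mRNAs lower, and none of these values reached the 2-fold cutoff. When the libraries were scaled with TMM factors, which set the bulk of the RNAs to no difference, *RHO1* lay below the mock IP with Ccr4 (log2 of -0.72, adjusted p = 3.9e-04) and with Dhh1 (-0.20, adjusted p = 0.35).

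The 3 exchange factors had distinct patterns. *ROM1*, the least counted member, had 18, 10 and 26 counts in the UT IP, 159, 107 and 77 with tagged Ccr4, 38, 36 and 34 with tagged Dhh1, 29, 23 and 33 with tagged Puf5 and 28 and 55 in the input. All Ccr4 libraries (3.46 to 6.94 CPM) were above all other libraries, and those of the Puf5 IP (1.05 to 1.41 CPM) overlapped the UT IP (0.455 to 1.14 CPM). Its log2 in the Ccr4 IP was 2.64 (SE 0.34, adjusted p = 1.9e-07), above 97.1% of mRNAs. With Puf5 it was 0.63 (SE 0.36, adjusted p = 0.14), close to the median of mRNAs.

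In the Dhh1 IP the log2 of *ROM1* was 1.03 (SE 0.35, adjusted p = 0.0095), a call at the edge of both cutoffs. It was lost when any 1 of 9 libraries was left out: UT IP replicates 1 and 2 (log2 of 1.00 and 0.78), Dhh1 IP replicates 1, 2 and 3 (1.03, 1.04 and 1.03), Ccr4 IP replicate 2 and Puf5 IP replicates 1, 2 and 3 (1.03 each). The call was also lost when only the groups compared were fitted. Rom1 and Rom2 are paralogs, and whether reads were divided between their mRNAs by the counting was not tested.

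*ROM2*, the paralog of *ROM1* that carries most of the exchange activity under normal growth, had 93, 102 and 62 counts in the UT IP, 427, 325 and 276 with tagged Ccr4, 232, 166 and 189 with tagged Dhh1, 175, 133 and 179 with tagged Puf5 and 117 and 135 in the input. Among the IPs the CPM fell in the order Ccr4 IP (15.4 ± 3.13, SD, n = 3), Dhh1 IP (8.98 ± 1.33), Puf5 IP (7.12 ± 0.918) and UT IP (3.75 ± 0.964). The Dhh1 and Puf5 libraries overlapped each other. The UT input (5.74 and 6.31 CPM) was above the UT IP and overlapped the Puf5 IP (6.06 to 7.67 CPM). The log2 was 2.02 (SE 0.22, adjusted p = 2.2e-08) in the Ccr4 IP, above 87.5% of mRNAs, and 1.25 (SE 0.22, adjusted p = 5.1e-05) in the Dhh1 IP, above 72.9%. The Puf5 IP gave 0.92 (SE 0.22, adjusted p = 0.0017), under the 2-fold cutoff, which it passed without UT IP replicate 2 (1.095) or without Puf5 IP replicate 2 (1.02).

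*TUS1*, the exchange factor that acts at cytokinesis, was the second member called in the Puf5 IP. It had 46, 53 and 55 counts in the UT IP, 175, 164 and 131 with tagged Ccr4, 87, 78 and 101 with tagged Dhh1, 177, 129 and 272 with tagged Puf5 and 93 and 54 in the input. Every IP library of a tagged strain was above the UT IP in CPM, and the Puf5 and Ccr4 libraries overlapped. The UT input (2.52 and 4.56 CPM) overlapped the Dhh1 IP (3.55 to 4.92 CPM). The log2 was 1.88 (SE 0.25, adjusted p = 1.1e-06) in the Puf5 IP, above 95.5% of mRNAs, and 1.63 (SE 0.25, adjusted p = 2.9e-06) in the Ccr4 IP, above 71.7%. In the Dhh1 IP it was 0.85 (SE 0.26, adjusted p = 0.0048), below the median of mRNAs.

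Of the GTPase activators, *LRG1* had the highest and *BEM2* the lowest log2 of the 6 mRNAs with Puf5. *LRG1*, whose protein restrains Rho1 in the control of glucan synthesis, had 51, 45 and 55 counts in the UT IP and 1159, 945 and 1239 in the Puf5 IP. It had 324, 250 and 225 counts with tagged Ccr4, 201, 228 and 151 with tagged Dhh1 and 80 and 119 in the input. The Puf5 libraries (48.9 ± 5.14 CPM, SD, n = 3) were all above the Ccr4 (11.9 ± 2.04) and Dhh1 (8.85 ± 1.51) libraries, which overlapped each other and were all above the UT IP (2.199 ± 0.195).

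*LRG1* was the only member called in all 3 IPs. These 3 comparisons share the UT IP libraries, and the share of all RNAs called in all 3 was not counted. The log2 of *LRG1* was 4.45 (SE 0.20, adjusted p = 1.2e-15) in the Puf5 IP, rank 2 of 4642 mRNAs, with values of 2.42 (SE 0.20, adjusted p = 2.3e-10) for Ccr4, rank 239, and 1.99 (SE 0.20, adjusted p = 6.5e-08) for Dhh1, rank 150. Leaving out any 1 IP library kept the call, with a log2 of 4.39 to 4.53 in the Puf5 IP. Against the UT input instead of the UT IP, the log2 was 3.35 (adjusted p = 1.9e-12) for Puf5 and 1.32 (adjusted p = 3.5e-05) for Ccr4, while 0.89 (adjusted p = 0.0078) in the Dhh1 IP no longer reached 2-fold.

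*BEM2*, a GTPase activator with a role in bud emergence, had 392, 371 and 444 counts in the UT IP, 772, 745 and 833 with tagged Ccr4, 800, 705 and 700 with tagged Dhh1, 559, 517 and 722 with tagged Puf5 and 474 and 574 in the input. No library of a tagged strain overlapped the UT IP in CPM, but the UT input (23.3 and 26.8 CPM) overlapped the Puf5 IP (23.6 to 30.7 CPM). The log2 was 1.00 (SE 0.15, adjusted p = 3.1e-06) in the Ccr4 IP, where it fell just short of the cutoff (0.999) and 36.9% of mRNAs were lower. For Dhh1 and Puf5 it was 0.94 (SE 0.15, adjusted p = 2.6e-05) and 0.58 (SE 0.15, adjusted p = 0.0039), both near the median of mRNAs. It would have been called in the Ccr4 IP without UT IP replicate 3 (1.08) or Ccr4 IP replicates 1 (1.03) or 2 (1.01), and in the Dhh1 IP without UT IP replicate 3 (1.02). With TMM factors the log2 of *BEM2* was -0.12, 0.02 and -0.01 in the Ccr4, Dhh1 and Puf5 IPs.

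**Figure D2:**
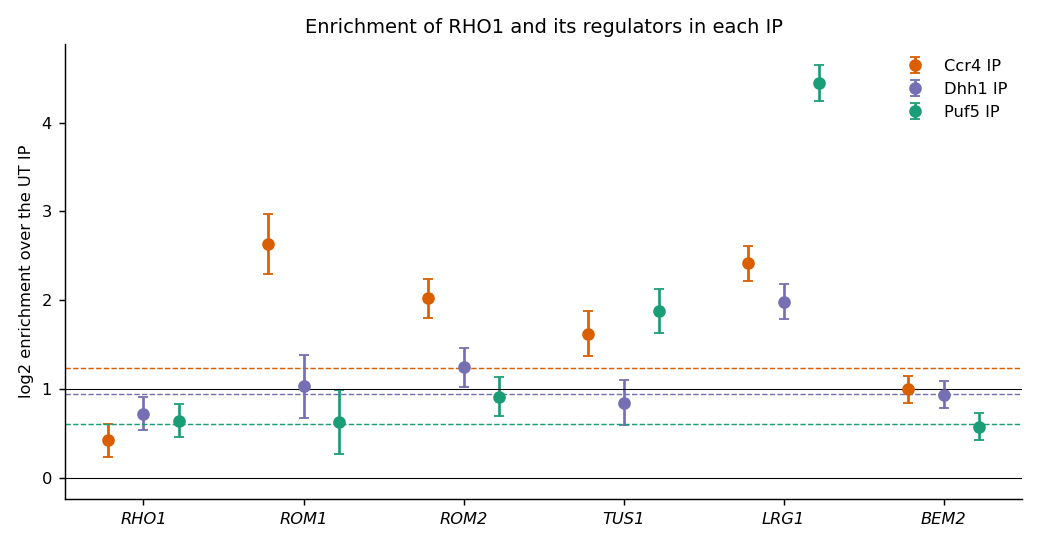
Log2 enrichment of each mRNA over the UT IP in the Ccr4, Dhh1 and Puf5 IPs; bars are the standard error of the fit, dashed lines the median of the tested mRNAs in the IP of that color, and solid lines mark 0 and the 2-fold cutoff of 1. *LRG1* lies at 4.45 in the Puf5 IP, and *RHO1* at 0.42 in the Ccr4 IP is the lowest value shown.

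TMM factors, which set the bulk of the RNAs to no difference, lowered all values of an IP by nearly the same amount. With the cutoff kept at a log2 of 1, only members far enough above the median mRNA could stay called. With TMM factors *LRG1* (log2 of 1.28, adjusted p = 3.2e-06) and *ROM1* (1.51, adjusted p = 5.4e-04) were called in the Ccr4 IP, against 5.63% of all RNAs. In the Dhh1 IP only *LRG1* was called (1.09, adjusted p = 1.3e-04), against 1.14%. With Puf5 *LRG1* (3.87, adjusted p = 7.1e-13) and *TUS1* (1.29, adjusted p = 1.8e-04) were called, against 4.45%. *ROM2* in the Ccr4 IP was then at 0.88 (adjusted p = 5.6e-04) and *TUS1* at 0.50 (adjusted p = 0.084), both under 2-fold.

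**Figure D3:**
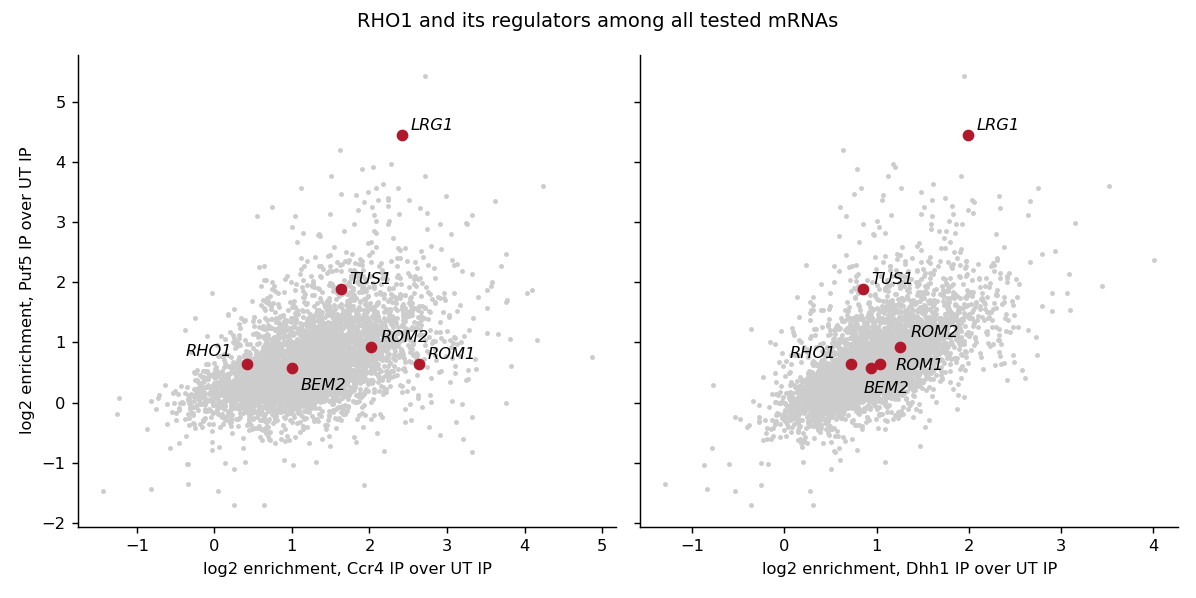
Log2 enrichment over the UT IP in the Puf5 IP (vertical axis) against that in the Ccr4 IP (left) and the Dhh1 IP (right); grey points are the 4642 mRNAs tested and red points the 6 named mRNAs. The UT IP libraries are shared by both axes. *LRG1* lies near the top (rank 2 in the Puf5 IP), and *TUS1* is above 95.5% of mRNAs on the vertical axis. *ROM1* is above 97.1% of mRNAs in the Ccr4 IP and above 57.1% in the Dhh1 IP.

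Whether the factors differed for a given mRNA was tested directly between the IPs, where the UT IP enters only through the shared estimate of the spread. Between the Puf5 and Ccr4 IPs, *LRG1* was higher in the Puf5 IP by a log2 of 2.03 (SE 0.18, adjusted p = 1.9e-09), a call made for 1.34% of RNAs. In the same comparison *ROM1* fell by 2.00 on the log2 scale (SE 0.32, adjusted p = 2.2e-05) and *ROM2* by 1.10 (SE 0.21, adjusted p = 1.8e-04), calls made for 16.9% of RNAs. The median mRNA was itself lower in the Puf5 IP (log2 of -0.56). *TUS1* (0.26, SE 0.23, adjusted p = 0.36), *RHO1* (0.22, SE 0.19, adjusted p = 0.33) and *BEM2* (-0.42, SE 0.15, adjusted p = 0.025) were not called. The *ROM2* call was lost without Ccr4 IP replicate 1 (-0.94, adjusted p = 0.0021) and with TMM factors (-0.55, adjusted p = 0.017), whereas those of *LRG1* (2.58) and *ROM1* (-1.44) held with TMM factors, with 4.47% of RNAs then called higher and 2.93% lower.

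Between the Puf5 and Dhh1 IPs, *LRG1* was higher in the Puf5 IP by a log2 of 2.46 (SE 0.18, adjusted p = 5.1e-11) and *TUS1* by 1.03 (SE 0.24, adjusted p = 0.0054), calls made for 1.61% of RNAs. The median mRNA differed by a log2 of -0.34 and no other member was called. The *TUS1* call was lost without Puf5 IP replicate 3 (0.73, adjusted p = 0.066), the library with its highest count, and without Dhh1 IP replicates 1 (0.99, adjusted p = 0.036) or 2 (0.94, adjusted p = 0.033). With TMM factors it was 1.35 (adjusted p = 1.2e-04), a call then made for 3.03% of RNAs.

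Between the Ccr4 and Dhh1 IPs, *ROM1* was higher in the Ccr4 IP by a log2 of 1.61 (SE 0.31, adjusted p = 7.6e-04), a call made for 3.31% of RNAs that held without any 1 IP library (1.32 to 1.82) and with TMM factors (1.36, against 1.56%). *ROM2* (0.77, SE 0.21, adjusted p = 0.012) and *TUS1* (0.78, SE 0.24, adjusted p = 0.026) were higher by less than 2-fold and missed the 1% FDR. *LRG1* differed by 0.43 (SE 0.18, adjusted p = 0.098), *RHO1* by -0.30 (SE 0.19, adjusted p = 0.28) and *BEM2* by 0.06 (SE 0.15, adjusted p = 0.82).

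**Figure D4:**
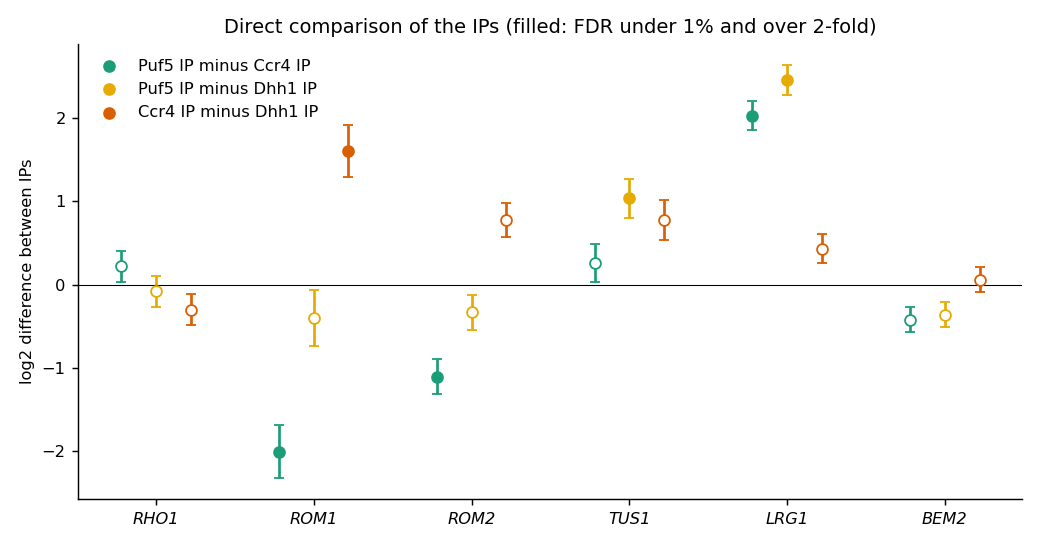
Log2 difference of each mRNA between pairs of IPs; bars are the standard error of the fit, filled points have an FDR under 1% and a difference over 2-fold, and open points do not. *LRG1* is higher in the Puf5 IP than in either other IP (2.03 and 2.46), and *ROM1* is higher in the Ccr4 IP than in either (-2.00 for Puf5 minus Ccr4 and 1.61 for Ccr4 minus Dhh1), though Puf5 minus Dhh1 for *ROM1* is not called.

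The mock IP itself took up these mRNAs unequally. Compared with the UT input, *LRG1* fell by 1.09 on the log2 scale in the UT IP (SE 0.23, adjusted p = 0.0022), a call made for 2.76% of the 5006 RNAs tested. The change of the other members was -1.28 for *ROM1* (SE 0.39, adjusted p = 0.031), -0.68 for *ROM2* (SE 0.24, adjusted p = 0.066), -0.64 for *TUS1* (SE 0.30, adjusted p = 0.15), -0.51 for *BEM2* (SE 0.17, adjusted p = 0.051) and -0.12 for *RHO1* (SE 0.21, adjusted p = 0.72), with a median of -0.40 for mRNAs. The input rested on 2 libraries, and the *LRG1* call was lost without UT input replicate 2 (-0.82, adjusted p = 0.12), UT IP replicate 1 (-1.07, adjusted p = 0.011) or UT IP replicate 2 (-1.05, adjusted p = 0.013). With TMM factors it was -0.67 and not called.

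Counts were also deposited for each RNA split by length into 3 segments, which placed the enrichment along each mRNA. The log2 of *LRG1* over the mock went from 3.29 (SE 0.34) in the 5′ segment to 4.61 (SE 0.25) in the middle and 4.70 (SE 0.28) in the 3′ segment of the Puf5 IP, and it was called in each (adjusted p of 5.0e-09, 1.1e-16 and 8.8e-11 by edgeR). That of *TUS1* was 0.97 (SE 0.41, adjusted p = 0.12), 1.71 (SE 0.40, adjusted p = 0.0017) and 2.42 (SE 0.31, adjusted p = 3.3e-06). In the 5′ segment *LRG1* alone was called of the 6 mRNAs (background 3.64%). In the middle segment *LRG1* and *TUS1* were called (6.98%), and in the 3′ segment all but *ROM1* (20.8%). *RHO1* (1.06, adjusted p = 0.0027), *BEM2* (1.01, adjusted p = 0.0012) and *ROM2* (1.57, adjusted p = 8.1e-04) passed the cutoffs only in this 3′ segment of the Puf5 IP, in which the median of mRNAs was 0.90.

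Several of these calls rested on single libraries. Without Puf5 IP replicate 3, 3 mRNAs were called in the 3′ segment, *RHO1* being at 0.92 and *BEM2* at 0.76. The *RHO1* call was also lost without UT IP replicates 2 (0.89) or 3 (1.05, adjusted p = 0.010 by edgeR) and that of *BEM2* without UT IP replicate 1 (0.97). In the middle segment *TUS1* was lost without Puf5 IP replicate 3 (1.11, adjusted p = 0.073) or UT IP replicates 1 (1.55, adjusted p = 0.014) or 2 (1.57, adjusted p = 0.016).

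In the Ccr4 IP the same 4 mRNAs (*ROM1*, *ROM2*, *TUS1* and *LRG1*) were called in the 5′ and in the middle segment (background 30.4% and 32%), and *BEM2* joined them in the 3′ segment (48.2%). *BEM2* had a log2 of 0.61 (SE 0.18), 0.91 (SE 0.19) and 1.40 (SE 0.22) from the 5′ to the 3′ segment, and *LRG1* was highest in the middle, at 2.68 (SE 0.25). In the 5′ segment the *TUS1* call was lost without UT IP replicate 3 (1.20) or Ccr4 IP replicate 1 (1.302). In the middle segment it was lost without UT IP replicates 1 (1.32) or 2 (1.34) or Ccr4 IP replicate 2 (1.17), and without Ccr4 IP replicate 1 the 3′ call of *ROM1* was lost (2.10). The segments of *ROM1* held few UT IP counts: 11, 2 and 5 in the 5′ segment and 5, 6 and 12 in the middle. Its 3′ segment had 2, 2 and 9. The standard errors of its log2 in the Ccr4 IP were 0.51, 0.48 and 0.71 from the 5′ to the 3′ segment.

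In the Dhh1 IP *LRG1* and *ROM2* were called in all 3 segments (background 11.4%, 13.1% and 29.2%), with *BEM2* added in the 3′ segment at 1.36 (SE 0.22). *LRG1* had a log2 of 1.78, 2.07 and 1.95, with standard errors of 0.36, 0.26 and 0.27. Without Dhh1 IP replicate 1 neither mRNA was called in the 5′ segment (1.40 for *LRG1* and 1.105 for *ROM2*). *ROM2* was lost in the middle without Dhh1 IP replicate 3 (0.98), and in the 3′ segment without UT IP replicates 1 (1.29) or 3 (1.02) or Dhh1 IP replicates 1 (1.15) or 3 (1.22).

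**Figure D5:**
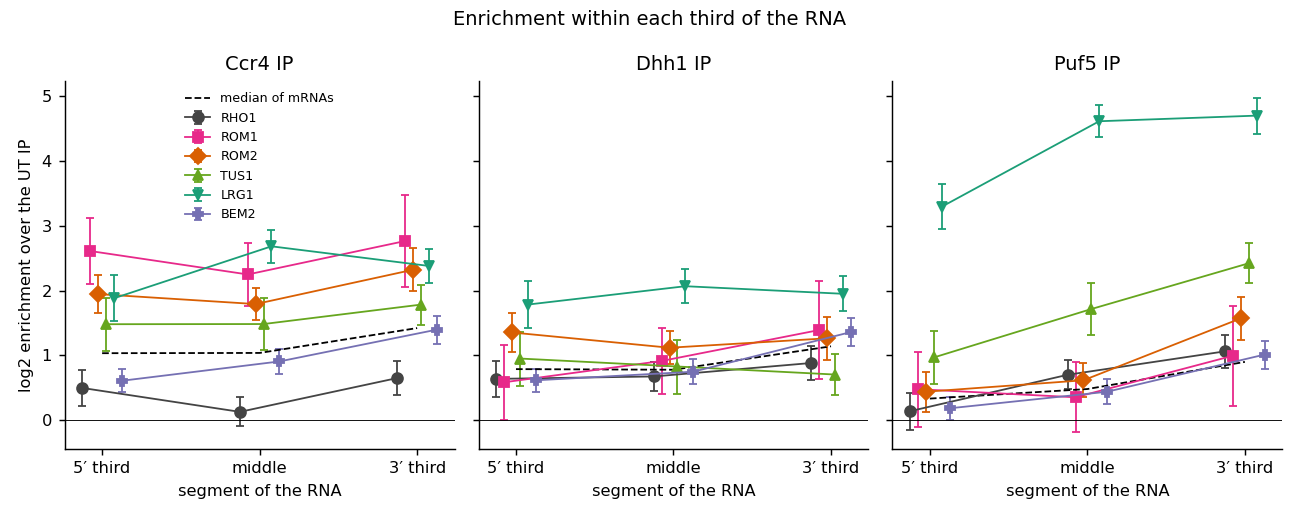
Log2 enrichment over the UT IP in the 5′, middle and 3′ segment of each mRNA, split by length into 3, in the Ccr4, Dhh1 and Puf5 IPs; bars are the standard error and the dashed line is the median of the mRNAs tested. In the Puf5 IP *ROM2*, *TUS1* and *LRG1* lie above the median in every segment and the median itself goes up from 0.33 to 0.90.

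An interaction term between segment and IP, with a term for each library, tested whether the enrichment differed between the 3′ and the 5′ segment (called when the adjusted p was under 5%). For Puf5 the 3′ minus 5′ difference in log2 was 1.38 for *LRG1* (SE 0.44, adjusted p = 0.042), 1.14 for *ROM2* (SE 0.38, adjusted p = 0.044) and 0.80 for *BEM2* (SE 0.23, adjusted p = 0.023). These 3 of 6 mRNAs were called toward the 3′ end, against 11.2% of the 4249 RNAs tested, of which 0.212% were called toward the 5′ end. *TUS1* had the largest difference of the 6, 1.49 (SE 0.51, adjusted p = 0.053), and missed the threshold, as did *RHO1* (0.93, SE 0.35, adjusted p = 0.081) and *ROM1* (0.51, SE 0.96, adjusted p = 0.74). The median mRNA differed by 0.61 between its ends.

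In the Ccr4 IP *BEM2* was called (0.79, SE 0.23, adjusted p = 0.043), against 5.37% of RNAs, and in the Dhh1 IP no member was called by edgeR, against 2.07%, *BEM2* being nearest at 0.74 (SE 0.23, adjusted p = 0.084) and the 1 member with a p under 0.05 before adjustment. None of the calls between ends held with TMM factors within each segment, where *LRG1* was at 0.79, *ROM2* at 0.55 and *BEM2* at 0.20 for Puf5 and *BEM2* at 0.37 for Ccr4.

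The end calls also depended on single libraries. With Puf5 none was left without Puf5 IP replicate 3 (*LRG1* 1.44, *ROM2* 0.97, *BEM2* 0.65). *BEM2* was otherwise lost only without UT IP replicate 3 (0.78), and *LRG1* without UT IP replicates 1 (1.36) or 3 (1.02), Dhh1 IP replicate 3 (1.38) or Puf5 IP replicates 1 (1.32) or 2 (1.40). *ROM2* was lost without any of 9 libraries (0.97 to 1.26), namely all 3 of the UT IP, all 3 of the Puf5 IP, Dhh1 IP replicates 1 and 2 and Ccr4 IP replicate 2. *TUS1* gained a call without UT IP replicate 3 (1.88, adjusted p = 0.022) and *RHO1* without UT IP replicate 1 (1.26, adjusted p = 0.028). The *BEM2* call in the Ccr4 IP was lost without any library of the UT IP, Ccr4 IP or Dhh1 IP (0.74 to 0.87).

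The reads themselves showed the same shape. Of the *LRG1* counts in the Puf5 IP, 49.3% ± 1.72 fell in the 3′ segment and 12.7% ± 1.01 in the 5′ segment (SD, n = 3), against 40.8% ± 7.25 and 26.5% ± 9.82 in the UT IP and 40.8% ± 2.90 and 21.2% ± 6.93 in the input (n = 2). For *TUS1* the 3′ share was 52.9% ± 9.71 in the Puf5 IP and 33.5% ± 4.82 in the UT IP, and for *ROM2* 43.0% ± 3.60 and 26.3% ± 3.45, with no overlap between libraries in either case. Over all mRNAs the 3′ share was 29.8% ± 0.838 in the UT IP and 40.4% ± 2.88 in the Puf5 IP. *LRG1* thus had a high 3′ share already in the mock IP, and its libraries in the Ccr4 (40.8% ± 5.16) and Dhh1 (39.8% ± 6.36) IPs overlapped those of the UT IP.

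The mRNAs most like *RHO1* and *LRG1* were sought by the Euclidean distance over the 3 log2 enrichments among the 2788 mRNAs whose mean over the IP libraries reached 50 counts. Nearest to *RHO1* were *TRX1*, which encodes a thioredoxin (distance 0.039), *RPL20A*, which encodes a large ribosomal subunit protein and has a close paralog (0.060), and *EGD1*, which encodes a subunit of the nascent polypeptide-associated complex (0.072). Nearest to *LRG1* were *CIN8*, a mitotic kinesin (0.75), *IES3*, a subunit of the INO80 remodeller (0.93), and *BDF1*, a bromodomain protein (0.94). *RHO1* thus had 3 mRNAs within a distance of 0.072, and *LRG1* had none nearer than 0.75. The distances from *RHO1* were smaller than the standard error of its log2 (0.19 in each IP). Which mRNAs were nearest to it was therefore not resolved. *LRG1*, at rank 2 in the Puf5 IP, lay where few mRNAs do. With Puf5 *CIN8* stood at a log2 of 3.77, *IES3* at 3.64 and *BDF1* at 3.97, each below *LRG1*.

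Beyond these genes, 32 of 35 listed genes of the Rho1 and cell wall integrity pathway and related genes had rows and were tested. In the Ccr4 IP 23 of the 32 were called higher than the UT IP, against 57.8% of all RNAs (median log2 1.37, against 1.24 for all mRNAs). With Dhh1 19 were called, against 37.4% (1.07 against 0.94), and with Puf5 6, against 17.6% (0.69 against 0.61), and the lowest log2 of the list was -0.15. With TMM factors 3, 1 and 2 were called, against 5.63%, 1.14% and 4.45% of RNAs. By edgeR, the highest values in the Ccr4 IP were those of the cell surface sensors *WSC4* (3.34, SE 0.31, adjusted p = 1.6e-09) and *MTL1* (3.04, SE 0.37, adjusted p = 7.3e-08). They were followed by *SWI6* (2.40, SE 0.27), a subunit of the SBF and MBF transcription factors. Both sensors had few counts in the UT IP, 9 to 22 for *WSC4* and 8 to 12 for *MTL1*. Of the 5 sensors tested, 3 were called in the Ccr4 IP, and the lowest stood at 0.70, below the median mRNA.

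Of the genes called in the Puf5 IP, *SWI6* was highest (2.40, SE 0.27, adjusted p = 4.6e-08), then *RHO3*, a GTPase of polarised secretion (1.66, SE 0.25, adjusted p = 8.8e-06), *WSC4* (1.41, SE 0.33), the response regulator *SKN7* (1.25, SE 0.24) and *RHO5* (1.02, SE 0.27). Of these 5, all but *SWI6* were below *TUS1*, and all were below *LRG1*. *SWI6*, like *LRG1*, was itself called lower in the UT IP than in the UT input (-1.28, SE 0.30, adjusted p = 0.0058 by edgeR). That call was made for 2.76% of RNAs and for 1 of the 32. Tested directly, 7 of the 32 were lower in the Puf5 IP than in the Ccr4 IP, led by *MTL1* (-2.01, SE 0.33, adjusted p = 3.7e-05) and *WSC4* (-1.93, SE 0.28, adjusted p = 5.1e-06), which were called with TMM factors too. Such calls were made for 16.9% of all RNAs, and for 2.93% with TMM factors. With TMM factors 1 of the 32, *RHO3*, was called higher in the Puf5 IP than in the Ccr4 IP, against 4.47% of RNAs. Between the Ccr4 and Dhh1 IPs 1 of the 32 was called, *MTL1*, higher with Ccr4 (1.71, SE 0.33, adjusted p = 6.6e-04 by edgeR). Such a call was made for 3.31% of all RNAs, and *MTL1* had 21 to 28 counts in the Dhh1 IP.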

How the data were processed

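RNA was sequenced on the SOLiD platform from 14 libraries, 12 IP and 2 input. The authors mapped the reads with SHRiMP to an earlier yeast genome build than the R64 assembly used here for gene symbols, and deposited raw counts for each RNA, taken from its transcript start to its end, and for 3 segments of equal length; strand-specific counting is stated for the parts of mRNAs, and for the whole RNA it is not spelled out in the sources used here. The segment counts summed to the whole count in every cell. The authors also deposited log2 enrichment values of their own comparisons, which were not used.

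Counts were tested with edgeR 4.0.16 in R 4.3.3 (quasi-likelihood F test, library size the total over all rows, no TMM factors, default filter on low counts, log2 with a prior count of 1, all 12 IP libraries in 1 fit, or all 14 libraries where the input entered). The standard error is the unshrunken log2 divided by the square root of F. In segments, RNAs needed a mean of at least 5 counts. Shares are given as mean ± SD. CPM are counts per 1000000 counts of a library. Depth limits *ROM1*, the least counted member, with 10 to 26 counts in the UT IP, and *WSC4* (9 to 22) and *MTL1* (8 to 12) of the pathway list. The study describes the IP libraries of a group as biological replicates. No pair of libraries of a group agreed within sampling noise (chi-square per degree of freedom of 2.46 to 12.2). The Ccr4 IP pairs agreed least, at 5.83, 9.42 and 12.2, and the highest value of any other group was 5.37.

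Alternatives were TMM factors, totals over mRNAs or without rRNA, DESeq2 1.42.0, no filter, fits of only the groups compared, the replicate number as a block, the UT input as reference, other cutoffs, edgeR's Poisson exact test on pairs of replicates, and leaving out each library. Plots used matplotlib 3.10.9 in Python 3.11.15. The members and lists were chosen with earlier results of these data known. Named were the members, the tagged and strain marker genes, the 3 mRNAs nearest to *RHO1* and to *LRG1*, and at most 10 called genes of the pathway list. Of 4792 mRNAs 4791 matched a locus tag of R64. Levels per gene length were not computed, since the build of the counts was not used here, and levels are compared within a gene only.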

Additional observations from a re-analysis of the deposited data

Results flagged for a closer look

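Of the differences between 2 factors, 6 passed the test of the difference itself (edgeR's quasi-likelihood F test, adjusted over all RNAs, FDR under 1% and over 2-fold). *LRG1* was higher in the Puf5 IP than in the Ccr4 IP (log2 of 2.03, adjusted p = 1.9e-09) and than in the Dhh1 IP (2.46, adjusted p = 5.1e-11), in 3 of 3 Puf5 libraries each time. *ROM1* was lower in the Puf5 IP than in the Ccr4 IP (-2.00, adjusted p = 2.2e-05) and higher with Ccr4 than with Dhh1 (1.61, adjusted p = 7.6e-04), in 3 of 3 Ccr4 libraries. *ROM2* was lower in the Puf5 IP than in the Ccr4 IP (-1.10, adjusted p = 1.8e-04) and *TUS1* higher in the Puf5 IP than in the Dhh1 IP (1.03, adjusted p = 0.0054), both losing the call when certain single libraries were left out. With TMM factors *ROM2* was at -0.55 and not called. Calls lower with Puf5 than with Ccr4 were made for 16.9% of all RNAs, the median mRNA being at -0.56. Calls higher with Puf5 than with Ccr4 were made for 1.34%, and than with Dhh1 for 1.61%. Those higher with Ccr4 than with Dhh1 were made for 3.31%.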

How the results depend on the processing

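Of the members called in the Ccr4, Dhh1 and Puf5 IPs (4, 3 and 2), 2 and 1 were left in the Ccr4 and Dhh1 IPs with TMM factors or DESeq2, and 1 in the Dhh1 IP with totals over mRNAs or without rRNA. With the UT input as reference 0 were left in the Dhh1 IP. In the Ccr4 IP totals over mRNAs, totals without rRNA and the UT input as reference each left 3, *TUS1* being at 0.87, 0.86 and 0.98. The share of all RNAs called fell as well, from 57.8%, 37.4% and 17.6% in the Ccr4, Dhh1 and Puf5 IPs. It was 15.6%, 3.19% and 5.65% with totals over mRNAs and 5.63%, 1.14% and 4.45% with TMM factors. Such shares are not given here for the remaining settings of the whole RNA. A log2 cutoff of 2 left 0 for Dhh1 and 1 for Puf5, and FDR under 1% with no cutoff gave 6 and 5. The member lower in the UT IP than in the input was no longer called (0) with TMM factors, totals over mRNAs, DESeq2 or only the groups compared. In the 5′ segment 1 and 0 members were called in the Ccr4 and Dhh1 IPs with TMM factors, 2 and 0 with mRNA totals, 1 and 0 with the UT input and 1 and 0 with a cutoff of 2. In the middle segment the Ccr4, Dhh1 and Puf5 IPs had 1, 1 and 1 with TMM factors, 2, 1 and 1 with mRNA totals, 2, 0 and 1 with the input and 2, 1 and 1 with a cutoff of 2. In the 3′ segment they had 1, 0 and 2, then 3, 1 and 2, then 3, 0 and 2, and 3, 0 and 2. Of all RNAs, 0.824% and 1.74% were called toward the 3′ end in the Ccr4 and Puf5 IPs with TMM factors within segments. Between the ends 0 members were called in the Ccr4 and Puf5 IPs with TMM factors within segments, with mRNA totals of the segment itself or with the input. The cause was not tested; TMM factors (0.13, 0.04 and 0.03) and DESeq2 (0.08, 0.02 and 0.005) set the shift of the median mRNA to nearly 0 by construction, whereas totals over mRNAs left 0.50, 0.30 and 0.13 and totals without rRNA 0.48, 0.36 and 0.23.

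Without 1 library each, 4 to 5, 2 to 4 and 2 to 3 members were called in the Ccr4, Dhh1 and Puf5 IPs, 2 to 3, 1 to 2 and 1 to 1 for Puf5 against Ccr4, Puf5 against Dhh1 and Ccr4 against Dhh1, and 0 to 1 for the UT IP against the input. By segment the ranges were 3 to 4, 0 to 2 and 1 to 1 (5′), 3 to 5, 1 to 2 and 1 to 2 (middle), 4 to 5, 2 to 4 and 3 to 5 (3′), and 0 to 1, 0 to 0 and 0 to 3 between the ends.

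Values that changed sign were of members not called, besides *ROM1* in the Dhh1 IP against the UT input (-0.25). With TMM factors, mRNA totals, totals without rRNA and DESeq2, *RHO1* in the Ccr4 IP was at -0.72, -0.34, -0.35 and -0.77, *RHO1* in Puf5 minus Dhh1 at 0.26, 0.095, 0.14 and 0.25 and *BEM2* in Ccr4 minus Dhh1 at -0.14, -0.042, -0.12 and -0.18. With TMM factors and DESeq2, *BEM2* was at -0.12 and -0.17 in the Ccr4 IP, at -0.0105 and -0.042 in the Puf5 IP and at 0.11 and 0.13 in Puf5 minus Ccr4, and in the Dhh1 IP *RHO1* was at -0.20 and -0.22 and *TUS1* at -0.055 and -0.073. *RHO1* in the UT IP against the input was at 0.30, 0.16 and 0.32 with TMM factors, mRNA totals and DESeq2. *ROM1* in the Puf5 IP was at -0.65 against the UT input, and its difference between ends there at -0.0027 with TMM factors, -0.13 with mRNA totals of the segment, -0.50 against the input and -0.36 without UT IP replicate 1. Without 1 library each, *TUS1* in Puf5 minus Ccr4 ran from -0.045 (without Puf5 IP replicate 3) to 0.46, *RHO1* in Puf5 minus Dhh1 from -0.20 to 0.095 (without Dhh1 IP replicate 1) and the difference between ends of *ROM1* in the Puf5 IP up to 1.32.

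Replicate numbers did not pair the libraries (r of -0.03 to 0.04 over 18 same-numbered pairs, 6 of 12 libraries correlating best with their own number). With the replicate block the members called were 5, 3 and 2 in the Ccr4, Dhh1 and Puf5 IPs, *BEM2* being added at 1.00, and 4 in the Puf5 3′ segment, where *BEM2* was at 0.99. Between the ends in the Puf5 IP the replicate block moved *ROM2* out (1.13) and *TUS1* in (1.53). Levels per gene length with their alternatives were not run. At 10 counts in 1 UT IP library, *ROM1* was the member whose fold was least precise (SE 0.34 to 0.36).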
